A study of Drosophila melanogaster with 12 samples.

Results

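The comparison described here is between a drug that inhibits TDO2, an enzyme that degrades tryptophan, and its solvent in heads of w1118 flies (Drosophila melanogaster). It rests on 6 of the 12 libraries of the series, chosen by the genotype and treatment in their labels. In 3 of them the flies had eaten the inhibitor 680C91 at 100 µM, and in the other 3 dimethyl sulfoxide (DMSO) alone. Both were mixed into the yeast extract of the food, which the flies had from eclosion and which was renewed every other day. Every library was total RNA of a single head, taken from a female 21 days old that the protocol text calls verging, read here as virgin. A replicate is therefore 1 fly, and p-values measure the spread between flies and library preparations together. The strain w1118 is called WT in the sample titles and carries a defective white gene, so its eyes hold no pigment. The other 6 libraries of the series are labelled as heads of SIRT6 knockout (KO) females of the same age, 3 with each treatment. Sirt6 stood at 1.95 to 2.50 CPM (counts relative to a fixed library total) in those libraries and at 1.37 to 2.71 CPM in w1118, so its level did not mark the genotype, and they are called libraries labelled KO here. The series asked how SIRT6 bears on tryptophan breakdown and on neurodegeneration.

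Most tryptophan that is not used for protein leaves through the kynurenine pathway. In flies its first enzyme is encoded by v (vermilion), the counterpart of TDO2, and its later products become the brown ommochrome pigments of the eye. A smaller flow of tryptophan leads to serotonin. An inhibitor acts on the enzyme, so the RNA level of v does not measure how far the enzyme was blocked.

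Libraries numbered 2 stood apart in both groups and are given separately throughout. The libraries held 35809827, 40609899 and 43324141 estimated counts with DMSO, in the order of their replicate numbers, and 40629658, 24633705 and 40979746 with inhibitor. Yolk protein genes (Yp1, Yp2 and Yp3) took 21.3%, 0.429% and 18.6% of the gene counts with DMSO, and 19.9%, 1.93% and 21.8% with inhibitor. Both libraries numbered 2 lay far below the other 4, and the groups overlapped. The means differed by 1.08 percentage points (exact permutation test, two-sided, p = 0.6, where 3 against 3 cannot go below 0.1). The chi-square per degree of freedom between replicates was 573 to 1335 where a library numbered 2 was one of the pair, and 101 and 125 in the pairs without one. Heads hold fat body as well as brain, eye, muscle and blood cells. In RNA from a whole head, fewer cells of a type and less RNA per cell cannot be told apart.

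The tissue label was checked against markers. Neuronal and photoreceptor genes were abundant in all 6 libraries: all 16 neuronal and all 30 phototransduction genes averaged at least 1 CPM (after TMM scaling, a trimmed mean of the log ratios between libraries). The summed level of the 18 tested eggshell and ovary genes was 11.6 to 18.2 CPM, and that of the 7 tested testis and accessory gland genes was 5.31 to 10.4 CPM. The 19 tested genes of digestive enzymes of the gut were higher. They summed to 503, 66.8 and 697 CPM with DMSO and to 947, 661 and 787 CPM with inhibitor. Of these 19 genes, 11 were lowest in the DMSO library numbered 2, where 24.5% of all genes were. The source of this RNA was not tested.

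No gene passed the threshold. Of 14155 genes tested with edgeR's quasi-likelihood test, 0 had an adjusted p under 0.05 (0.0%), and the smallest adjusted p was 0.136. At an unadjusted p under 0.05 there were 1046 genes (7.39%), of which 539 were higher with inhibitor (3.81%) and 507 lower (3.58%). With limma's voom and library weights 0 genes were called and 765 had an unadjusted p under 0.05. DESeq2 called 48 genes (0.345% of the 13907 it adjusted), 20 higher and 28 lower. Of these 48 genes, 30 had no count in at least 1 of the 6 libraries, 31 overlap another annotated gene and 8 are histone genes. The shares of all genes with these traits were not counted, so these numbers have no background to be read against. The 3 libraries with inhibitor lay above all 3 with DMSO for 443 genes (3.13%) and below all 3 for 676 genes (4.78%), which makes 1119 genes (7.91%) in either direction. These shares are the background for every count of separated genes that follows. Across all genes the median log2 difference was -0.01 and the median standard error was 0.25. In counts simulated from the mean levels of the libraries, edgeR called 31 of 101 genes changed by 1 on the log2 scale and 75 of 99 genes changed by 2. The spread in that simulation was assumed and held no outlying library, so these rates are not estimates for the real libraries.

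The target of the inhibitor is v (FBgn0003965, X:10923972-10925631 of BDGP6, plus strand). Its level was 61.2, 2.12 and 93.0 CPM with DMSO and 83.5, 105 and 111 CPM with inhibitor. The library numbered 2 with DMSO was the one low value, and the groups overlapped. The log2 difference of 0.94, with SE 0.86, a 95% interval of -0.98 to 2.85 and an edgeR adjusted p of 0.882, did not pass the threshold. It was 0.35 for v without both libraries numbered 2. In the libraries labelled KO v stood at 48.0, 39.3 and 21.7 CPM with DMSO and at 50.6, 43.8 and 43.3 CPM with inhibitor.

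Of the 16 tested genes of tryptophan and kynurenine metabolism, none had an adjusted p under 0.05, 4 were lower and 0 higher at an unadjusted p under 0.05, and 3 were lower in all 3 libraries with inhibitor. Their median log2 difference was -0.16, against -0.01 over all genes, and without both libraries numbered 2 it was -0.02. The 4 lower genes all act in eye pigment formation or in amine acetylation. The clearest was st (scarlet), which pairs with white to carry pigment precursors into granules: 22.1, 30.1 and 18.4 CPM with DMSO and 18.2, 11.2 and 16.4 CPM with inhibitor. For st the groups did not overlap, with the lowest DMSO library just above the highest with inhibitor, and the difference was -0.62 (SE 0.20, edgeR adjusted p = 0.555). It was -0.20 for st without both libraries numbered 2. The gene st overlaps CG43373, and for the sum of both genes the groups overlapped. The log2 ratio of the means was -0.61 for st alone and -0.24 for the sum. How reads were divided between them was not tested.

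The acetyltransferase gene speck, which inactivates serotonin and dopamine, stood at 44.2, 74.0 and 46.0 CPM with DMSO and 38.2, 30.4 and 42.8 CPM with inhibitor. Its highest value was the library numbered 2 with DMSO and its lowest the library numbered 2 with inhibitor. The difference for speck was -0.56 (SE 0.19, edgeR adjusted p = 0.59), and -0.14 without those libraries. The kynurenine hydroxylase gene cn (cinnabar) was near the limit of counting, at 0.723, 0.462 and 0.505 CPM against 0.409, 0.214 and 0.339 CPM. The peroxidase gene cd (cardinal) was at 9.29, 7.66 and 5.15 CPM against 6.49, 3.35 and 4.01 CPM, and its groups overlapped. KFase, the formamidase that follows v in the pathway, was at 17.5, 25.7 and 17.2 CPM against 15.6, 18.6 and 15.1 CPM. Kyat, the kynurenine aminotransferase gene, was at 61.2, 21.9 and 57.5 CPM against 53.4, 58.9 and 66.9 CPM. Neither KFase nor Kyat was separated between groups.

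On the serotonin side, the neuronal tryptophan hydroxylase gene Trhn was at 7.78, 10.7 and 8.24 CPM with DMSO and 9.15, 8.59 and 7.96 CPM with inhibitor. The log2 difference of Trhn was -0.06 (SE 0.14). The other hydroxylase gene, Hn (Henna), which serves phenylalanine and pigment chemistry, was lowest in both libraries numbered 2, at 1056, 109 and 1004 CPM against 907, 387 and 950 CPM. Log2 differences were -0.25 (SE 0.13) for the serotonin transporter SerT, -0.11 (SE 0.17) for the decarboxylase Ddc and -0.18 (SE 0.15) for the vesicular transporter Vmat. They were -0.14 (SE 0.20) for w itself, -0.13 (SE 0.19) for the transporter kar, -0.32 (SE 0.16) for the pigment granule protein Rab32 and 0.03 (SE 0.09) for TrpRS, which charges tryptophan onto its transfer RNA. The smallest edgeR adjusted p among them was 0.70, for Rab32. The directions of w, kar, Trhn, Hn, Ddc and Vmat turned when the DMSO library numbered 2 was left out, with w at 0.05, kar at 0.10, Trhn at 0.12, Hn at -0.44, Ddc at 0.13 and Vmat at 0.06.

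Breakdown of tyrosine and phenylalanine was read beside it. Of 8 tested genes, 2 were lower in all 3 libraries with inhibitor and 0 higher. They were Tat, a tyrosine aminotransferase gene, at 146, 339 and 161 CPM against 110, 110 and 143 CPM, and Faa, which acts at the last step, at 22.0, 59.2 and 27.4 CPM against 19.3, 18.2 and 19.6 CPM. The library numbered 2 with DMSO was the highest for both. Tat differed by -0.83 (SE 0.28, edgeR adjusted p = 0.588) and Faa by -0.93 (SE 0.32, adjusted p = 0.59). Tat stood at -0.26 and Faa at -0.32 without both libraries numbered 2.

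The smallest p of all belonged to lncRNA:roX2 (FBgn0019660, X:11579065-11580432, plus strand), a noncoding RNA that in males helps to mark the X chromosome for doubled transcription. It was at 3.04, 2.07 and 2.31 CPM with DMSO (84, 112 and 87 counts) and at 0.877, 0.784 and 0.679 CPM with inhibitor (30, 22 and 22 counts). Every library with inhibitor lay below every library with DMSO, and the libraries numbered 2 did not stand apart. The difference for lncRNA:roX2 was -1.66 in log2 units, with SE 0.20, a 95% interval of -2.11 to -1.20 and an edgeR adjusted p of 0.136. Without both libraries numbered 2 the difference was -1.75. Over the other settings tried the adjusted p ran from 3.74e-06 with DESeq2 to 1.00 in an edgeR fit of the 6 w1118 libraries alone. In the libraries labelled KO the same RNA was at 2.26, 3.21 and 2.86 CPM with DMSO and 1.11, 1.20 and 1.1 CPM with inhibitor. The related lncRNA:roX1 was at 41.3, 41.4 and 41.9 CPM with DMSO and 26.4, 39.2 and 22.0 CPM with inhibitor (difference -0.51, SE 0.21, edgeR adjusted p = 0.638). The gene msl-2, which encodes a protein of the same complex that females lack, was at 37.8, 49.6 and 39.2 CPM against 37.6, 40.2 and 36.4 CPM, with overlapping groups.

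**Figure D1:**
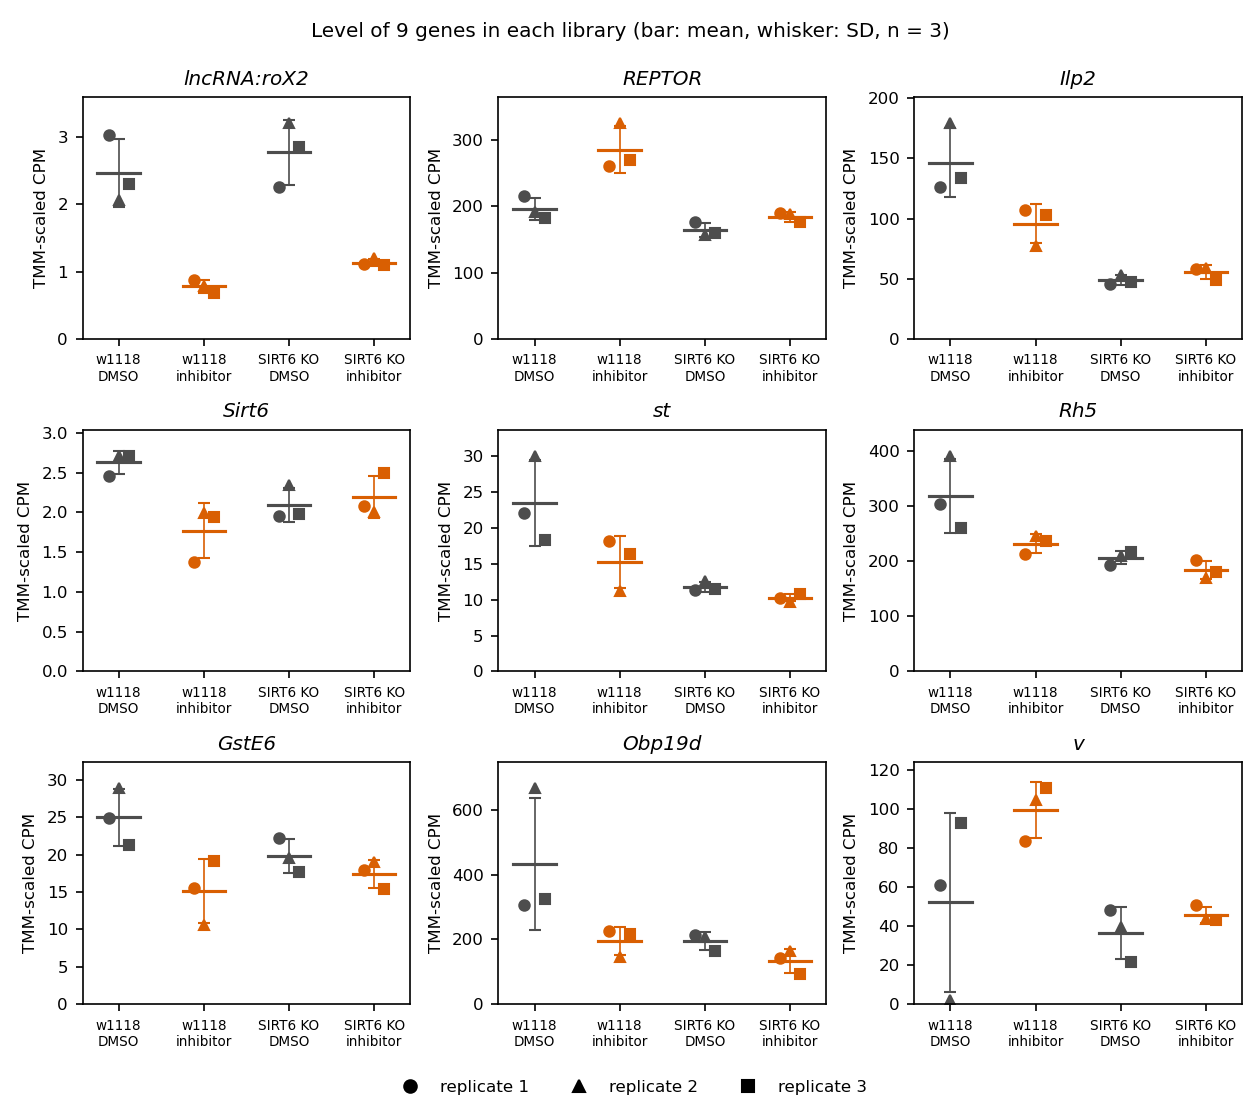
TMM-scaled CPM of 9 genes in each of the 12 libraries, by genotype and treatment, with a symbol for each replicate number, the group mean as a bar and the SD as a whisker (n = 3). In w1118, lncRNA:roX2 lies between 2.07 and 3.04 CPM with DMSO and between 0.679 and 0.877 CPM with inhibitor, whereas v spans 2.12 to 93.0 CPM among the DMSO libraries alone.

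The protein-coding gene REPTOR was also separated upward. REPTOR (FBgn0039209, 3R:24557368-24582864, minus strand) encodes a transcription factor that the growth kinase complex TORC1 holds inactive and that is needed for the response to starvation. It was at 216, 191 and 183 CPM with DMSO and at 261, 326 and 270 CPM with inhibitor. All 3 libraries with inhibitor were higher, with the library numbered 2 the highest. The difference was 0.54 (SE 0.12, edgeR adjusted p = 0.555), and 0.44 for REPTOR without both libraries numbered 2. The adjusted p of REPTOR was 0.00398 with DESeq2 and 0.208 to 1.00 under the other settings. Its partner REPTOR-BP was at 63.5, 105 and 148 CPM against 123, 58.8 and 46.6 CPM, with overlapping groups. Lamtor2, a subunit of the lysosomal anchor of TORC1, was at 8.21, 8.14 and 8.21 CPM with DMSO and at 3.62, 3.99 and 4.84 CPM with inhibitor. Lamtor2 shares its locus with CG30120, which had 0 counts in the 3 DMSO libraries and 3.59, 2.89 and 2.44 CPM with inhibitor. The log2 ratio of the means was -0.90 for Lamtor2 alone and -0.19 for the sum of Lamtor2 and CG30120. The sum was still lower in all 3 libraries with inhibitor, at 7.22, 6.88 and 7.28 CPM against 8.21, 8.14 and 8.21 CPM. How reads were divided between the overlapping genes was not tested.

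Shared loci also gave some of the largest differences. CG7071 was at 1.41, 2.31 and 2.02 CPM with DMSO and 18.2, 20.9 and 21.6 CPM with inhibitor (log2 difference 3.40, SE 0.63, edgeR adjusted p = 0.555). The annotation gives Muted the same start and end as CG7071 (3R:22362620-22364580), and Muted ran the other way, at 19.0, 15.5 and 18.8 CPM against 0.877, 0.713 and 1.76 CPM. The log2 ratio of means was 3.10 for CG7071 and 0.11 for the sum of CG7071 and Muted. CG17325 was at 24.6, 41.7 and 34.3 CPM with DMSO and 0, 0 and 1.73 CPM with inhibitor, and it shares start and end with CG42305 (2L:18812648-18813941), for which the groups overlapped. The summed level of CG17325 and CG42305 had a log2 ratio of -1.34. Levels of single genes at these shared loci are uncertain. Other genes named here, among them st, ninaB and alrm, also overlap annotated genes.

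Among further genes separated upward by the rule for naming genes, CG31759 was at 5.50, 4.36 and 6.46 CPM against 9.03, 8.73 and 10.2 CPM (0.78, SE 0.18, edgeR adjusted p = 0.555). The antisense RNA asRNA:CR45621 was at 4.56, 3.19 and 4.14 CPM against 6.78, 7.66 and 5.83 CPM, and asRNA:CR45272 at 0.470, 0.203 and 0.558 CPM against 2.37, 2.99 and 1.79 CPM. These 2 antisense RNAs lie across Fpgs1 and Spn53F, which stood at 441 and 608 CPM in the library numbered 2 with inhibitor. Whether reads were counted by strand is not given in the sources used here. How reads were divided between an antisense RNA and its partner is therefore uncertain.

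The other 5 genes the rule named upward, lncRNA:CR46480, CG43296, alpha-Est4aPsi, lncRNA:CR44151 and CG10912, stood at 384 CPM (alpha-Est4aPsi) to 998 CPM (lncRNA:CR44151) in the inhibitor library numbered 2 and at no more than 5.15 CPM in the other 5, and are taken up with that library.

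Separated downward were yellow-c, a gene of the yellow family, at 46.7, 113 and 46.1 CPM against 27.3, 17.7 and 25.6 CPM, and CG17107 at 4.12, 15.4 and 7.01 CPM against 2.08, 1.64 and 2.28 CPM. CG30427 was at 18.7, 39.2 and 17.9 CPM against 12.5, 7.02 and 11.3 CPM. In all 3 of these genes the highest of the 6 values was the library numbered 2 with DMSO and the lowest the library numbered 2 with inhibitor. Without both, the log2 difference moved from -1.54 to -0.79 for yellow-c, from -2.14 to -1.34 for CG17107 and from -1.30 to -0.60 for CG30427. The receptor-like gene dpr21, of a family of neuronal immunoglobulin proteins, was at 27.5, 33.7 and 31.3 CPM against 21.3, 23.5 and 15.0 CPM, and its difference was -0.63 with all libraries and -0.67 without those 2. The rule also named CG15120 (1.77, 1.92 and 1.17 CPM against 0.351, 0.463 and 0.679 CPM), CG31189 (3.29, 4.71 and 3.59 CPM against 2.43, 1.64 and 1.97 CPM) and CG6830 (15.6, 26.5 and 19.2 CPM against 14.0, 10.5 and 11.7 CPM).

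The genes with the smallest DESeq2 adjusted p were ones with no count in part of the libraries. The ribosomal RNA gene copy 18SrRNA:CR45838 was at 1021 and 2324 CPM in the DMSO libraries numbered 1 and 3 and at 0 in the other 4 of w1118. PIG-M was at 8.44 and 27.0 CPM in the DMSO libraries numbered 2 and 3, and at 0 elsewhere in w1118. A reading frame of the tarsal-less transcript, tal-1A, was at 18.6, 10.9 and 10.8 CPM with DMSO and at 0 in all 3 with inhibitor. In the other direction, pre-mod(mdg4)-U was at 7.31 CPM, His2A:CG33832 at 28.1 and 20.3 CPM and Tcs1 at 37.9 CPM. These values came from 1, 2 and 1 of the w1118 libraries with inhibitor, and the level was 0 in all other w1118 libraries. In the libraries labelled KO each of these genes had counts in some libraries, with PIG-M at 25.0, 7.94 and 28.7 CPM with inhibitor. Each of these 6 genes overlaps other annotated genes, and edgeR's smallest adjusted p among them was 0.555. Their levels are uncertain, as reads can be divided among copies or overlapping transcripts.

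Insulin and nutrient genes showed 1 separated gene in each direction among 22. Ilp2 (FBgn0036046, 3L:9799698-9800440), an insulin-like peptide made by a small group of brain cells, was at 126, 179 and 134 CPM with DMSO and 107, 76.9 and 103 CPM with inhibitor. All 3 libraries with inhibitor were lower, and the library numbered 2 was the highest with DMSO and the lowest with inhibitor. The difference for Ilp2 was -0.61 (SE 0.17, edgeR adjusted p = 0.555), and -0.29 without both libraries numbered 2. Ilp5, from the same cells, was at 30.9, 42.6 and 31.7 CPM against 31.5, 8.45 and 25.8 CPM, and Ilp3 at 1.48, 2.68 and 1.35 CPM against 0.935, 4.06 and 0.956 CPM, both with overlapping groups. The insulin receptor gene InR was at 77.4, 91.0 and 84.5 CPM against 130, 718 and 92.5 CPM, with a difference of 1.90 (SE 0.63, edgeR adjusted p = 0.565). Without the inhibitor library numbered 2 the difference for InR was 0.42. Thor, which encodes a translation repressor induced by starvation, was at 288, 155 and 294 CPM against 196, 274 and 127 CPM.

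Sirt6, the gene after which the knockout is named, was at 2.46, 2.71 and 2.71 CPM with DMSO and 1.37, 2.00 and 1.94 CPM with inhibitor in w1118. All 3 values with inhibitor were lower, at 47, 56 and 63 counts against 68, 147 and 102. The difference for Sirt6 was -0.57 (SE 0.18, edgeR adjusted p = 0.555) and -0.62 without both libraries numbered 2. It was the 1 separated gene among 11 of NAD synthesis and use. Nadsyn, which completes NAD, was at 63.7, 48.3 and 71.1 CPM against 71.7, 69.9 and 80.3 CPM.

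Of 18 fat body and yolk genes, 0 were separated between treatments, and levels differed widely within groups. Yp1 was at 90009, 1217 and 64369 CPM with DMSO and 73826, 4890 and 81843 CPM with inhibitor. The larval storage protein gene Lsp2 was at 12174, 38.3 and 3885 CPM against 1680, 36.5 and 2503 CPM, and tobi, a glucosidase gene under insulin and glucagon-like control, at 1341, 4.56 and 363 CPM against 309, 9.05 and 397 CPM. Both genes were low in both libraries numbered 2. The 2 libraries were not alike in all fat body genes. The fatty acid synthase gene FASN1 was at 935 CPM in the library numbered 2 with DMSO and 5947 CPM in that with inhibitor, against 5353 to 13377 CPM in the other 4. Apoltp, a lipid transfer lipoprotein gene, was at 92.3 CPM and 3408 CPM in the same 2 libraries and at 2555 to 4040 CPM in the others. All 15 genes of lipid storage and fatty acid synthesis had their lowest level in the library numbered 2 with DMSO, where 24.5% of all genes did.

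**Figure D2:**
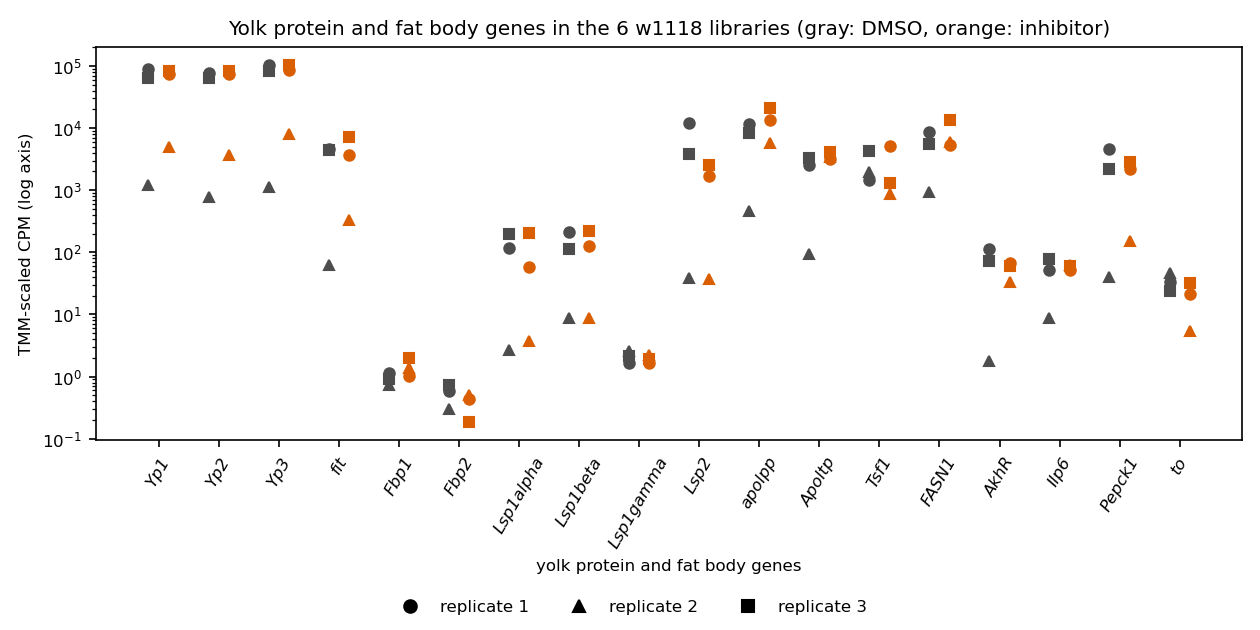
TMM-scaled CPM, on a log axis, of the 18 yolk protein and fat body genes in the 6 w1118 libraries, with gray symbols for DMSO, orange for inhibitor and a shape for each replicate number. The triangles, libraries numbered 2, lie lowest for the yolk proteins in both groups (Yp1 at 1217 and 4890 CPM), whereas FASN1 and Apoltp are low with DMSO alone.

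Photoreceptor genes had no member past the threshold. Of 30 tested, 6 were below in all 3 libraries and 0 above, 24 had a log2 difference below 0 and 6 above, and the median was -0.21. The highest of the 6 values was the DMSO library numbered 2 for 26 of the 30, against 28.6% of all genes. Rh5, an opsin of the inner photoreceptors, was at 303, 392 and 260 CPM with DMSO and 212, 246 and 237 CPM with inhibitor (difference -0.46, SE 0.15, edgeR adjusted p = 0.561). The main opsin gene ninaE was at 12402, 16330 and 10165 CPM against 8844, 8518 and 9603 CPM. The other separated genes were inaD, the scaffold of the transduction complex, Arr2, an arrestin that ends the response, and ninaB and ninaD, which make and supply the retinal precursor. The difference was -0.43 for inaD (SE 0.18), -0.45 for Arr2 (SE 0.23), -0.71 for ninaB (SE 0.27) and -1.02 for ninaD (SE 0.46). Without both libraries numbered 2 the median of the list was -0.03, with 9 of 30 members below and 5 above in the 2 against 2 libraries left, where 17.4% and 15.3% of all genes were. In that comparison Rh5 stood at -0.30.

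Neuronal genes showed 0 of 16 separated and a median of 0.03. Without both libraries numbered 2 the median was 0.32, and 13 of the 16 were above in the 2 against 2 libraries, where 15.3% of all genes were. The nuclear RNA-binding marker elav was at 138, 222 and 126 CPM with DMSO and 180, 152 and 171 CPM with inhibitor, and the active zone gene brp at 269, 376 and 247 CPM against 341, 290 and 310 CPM. Snap25 was at 112, 202 and 119 CPM against 125, 679 and 136 CPM. It was the 1 member of the 16 that was highest in the inhibitor library numbered 2. The summed level of the 16 genes, which includes that value, was 3787, 5740 and 3571 CPM against 4532, 4359 and 4216 CPM. It was highest in the DMSO library that had the least yolk protein RNA, and the part of tissue make-up in these levels was not tested. Ribosomal protein genes went the other way. Their sum was 94529, 25226 and 74260 CPM with DMSO and 72602, 50782 and 76059 CPM with inhibitor, 84 of 89 were lowest in the DMSO library numbered 2, and their median moved from 0.03 to -0.17 without both such libraries.

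**Figure D3:**
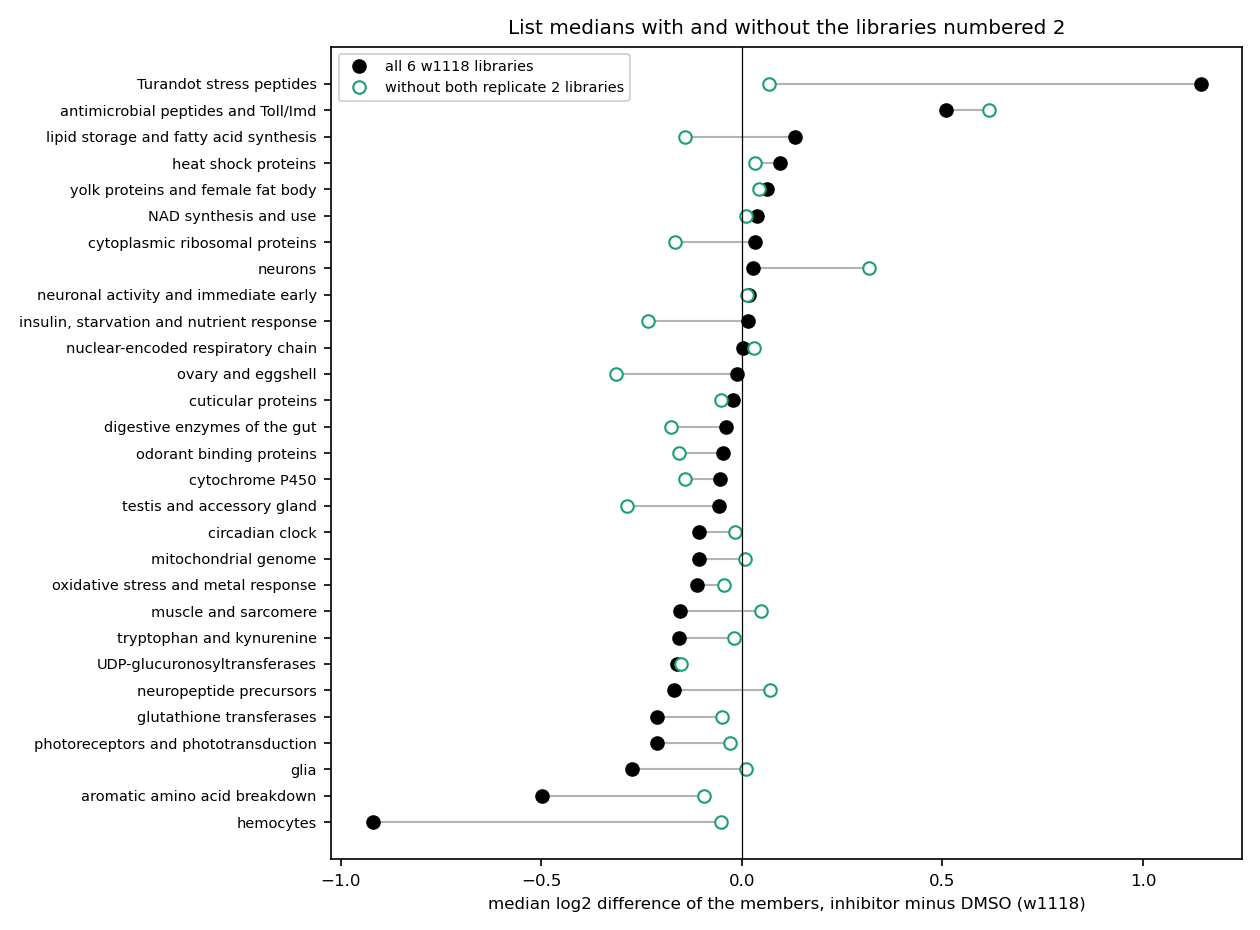
Median log2 difference (inhibitor minus DMSO, w1118) of the tested members of each of 29 gene lists, from all 6 libraries (filled) and without both libraries numbered 2 (open). The blood cell list moves from -0.92 to -0.05 and the neuron list from 0.03 to 0.32.

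Blood cell (hemocyte) genes showed the largest negative median, -0.92 over 11 genes, with 3 separated downward. The DMSO library numbered 2 was the highest of the 6 for 10 of the 11. Hml, a clotting protein gene used as a blood cell marker, was at 236, 785 and 258 CPM with DMSO and 155, 182 and 223 CPM with inhibitor. Pxn, a matrix peroxidase, was at 76.6, 240 and 71.3 CPM against 65.7, 48.2 and 74.7 CPM, and the scavenger receptor Sr-CI at 21.7, 97.6 and 20.0 CPM against 17.9, 14.0 and 16.7 CPM. Without both libraries numbered 2 the median of the list was -0.05. Of 9 glial genes, 1 was separated, the astrocyte gene alrm at 37.9, 57.3 and 42.3 CPM against 33.6, 31.8 and 33.1 CPM (difference -0.48, SE 0.19, edgeR adjusted p = 0.634).

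Genes of enzymes that handle foreign compounds had no member past the threshold. Of 33 glutathione transferase genes, 6 were separated downward and 1 upward, 5 were lower and 2 higher at an unadjusted p under 0.05, and the median was -0.21. GstE6 was at 24.8, 28.9 and 21.2 CPM with DMSO and 15.6, 10.6 and 19.2 CPM with inhibitor (difference -0.73, SE 0.20, edgeR adjusted p = 0.555), and GstD9 at 13.5, 16.3 and 13.7 CPM against 10.7, 10.8 and 11.9 CPM (difference -0.38, SE 0.12, adjusted p = 0.555). GstE6 stood at -0.39, GstD9 at -0.25 and the median of the list at -0.05 without both libraries numbered 2. Of 84 cytochrome P450 genes, 7 were separated downward and 1 upward, 10 were lower and 2 higher at an unadjusted p under 0.05, and the median was -0.05. Cyp9f2 was at 285, 343 and 285 CPM against 245, 185 and 229 CPM, and Cyp6a2, which is linked to insecticide tolerance, at 23.8, 27.7 and 23.5 CPM against 19.9, 12.8 and 15.4 CPM. With both libraries numbered 2 left out, 30 of the 84 P450 genes were below and 6 above, where 17.4% and 15.3% of all genes were, and the median was -0.14. Cyp313b1, the 1 separated upward, was at 3.01, 394 and 1.88 CPM with inhibitor. Of 34 UDP-glucuronosyltransferase genes, 3 were separated downward and 0 upward, among them Ugt35A1 at 6.11, 9.29 and 7.86 CPM against 5.67, 4.35 and 5.15 CPM (difference -0.62, SE 0.19, edgeR adjusted p = 0.555).

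**Figure D4:**
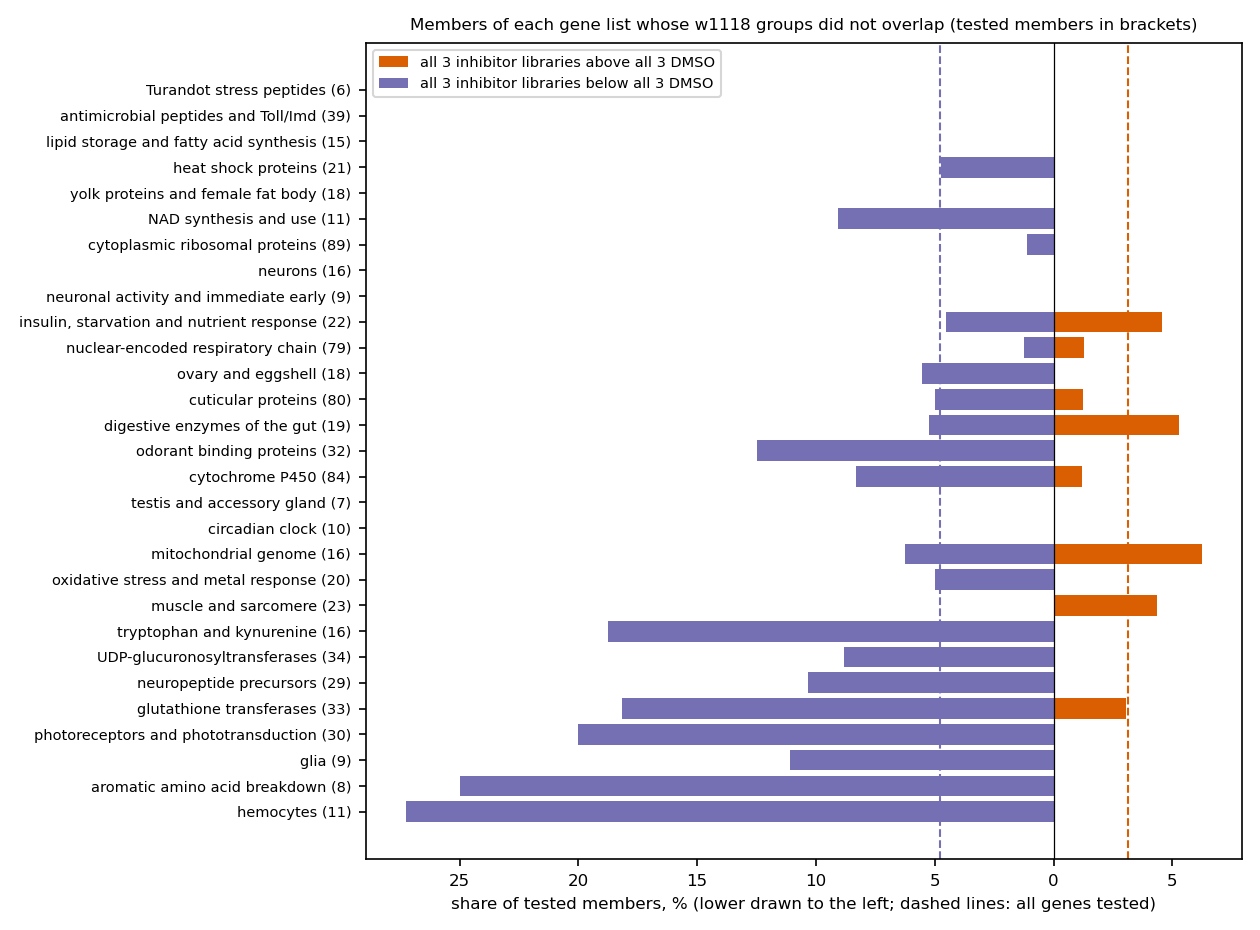
Share of the tested members of each of 29 gene lists whose 3 libraries with inhibitor lay all above (right, orange) or all below (left, purple) the 3 with DMSO in w1118, with dashed lines at the shares among all genes, 3.13% above and 4.78% below. Among lists of at least 30 members, phototransduction genes (6 of 30) and glutathione transferases (6 of 33) reach farthest to the left.

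Odorant binding proteins, secreted around sensory neurons, and neuropeptides had no member past the threshold. Of 32 odorant binding protein genes, 4 were separated downward and 0 upward. Obp19d was at 304, 668 and 323 CPM with DMSO and 224, 146 and 216 CPM with inhibitor (difference -1.14, SE 0.33, edgeR adjusted p = 0.555). Obp57a was at 8.75, 27.9 and 11.1 CPM against 6.90, 3.81 and 7.62 CPM (difference -1.38, SE 0.42, adjusted p = 0.555). Both held their extremes in the libraries numbered 2, and without these Obp19d stood at -0.49 and Obp57a at -0.43. Of 29 neuropeptide precursor genes, 3 were separated downward, 0 upward, and 23 had a log2 difference below 0. The lowest of the 6 values was the inhibitor library numbered 2 for 16 of the 29, against 18.3% of all genes. With both libraries numbered 2 left out, the median of the neuropeptide list turned from -0.17 to 0.07. Then 6 of the 29 members were above and 5 below, where 15.3% and 17.4% of all genes were. The median of the odorant binding proteins moved from -0.05 to -0.16. Nplp3 was at 144, 192 and 132 CPM against 121, 60.9 and 112 CPM (difference -0.68, SE 0.24, edgeR adjusted p = 0.602), and SIFa, made by a few brain neurons, at 6.87, 7.0 and 5.42 CPM against 5.61, 2.78 and 4.47 CPM. Of 80 cuticular protein genes, 4 were separated downward and 1 upward, close to the background.

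Antimicrobial and immune pathway genes had a median of 0.51 over 39 genes, 34 of them above 0, yet 0 were separated. Their summed level was 5166, 1015 and 11754 CPM with DMSO and 17040, 3892 and 4079 CPM with inhibitor. The antibacterial peptide gene AttA was at 346, 16.9 and 2301 CPM against 2860, 233 and 618 CPM, and DptB at 12.9, 3.64 and 869 CPM against 871, 155 and 27.7 CPM. One library in each group was high for both genes, the DMSO library numbered 3 and the inhibitor library numbered 1, and 29 of the 39 genes were lowest in the DMSO library numbered 2. Without both libraries numbered 2 the median of the list was 0.62. Then 1 of the 39 was above and 0 below in the 2 against 2 libraries, where 15.3% and 17.4% of all genes were. The Turandot stress peptides had a median of 1.14 over 6 genes, and 5 of the 6 were highest in the inhibitor library numbered 2, where 20.1% of all genes were. TotA was at 66.8, 8.03 and 37.4 CPM with DMSO and 42.6, 549 and 59.0 CPM with inhibitor, and TotC at 90.7, 1.31 and 38.7 CPM against 45.6, 648 and 54.9 CPM. The log2 difference was -0.01 for TotA and -0.34 for TotC when both libraries numbered 2 were left out.

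Muscle, respiratory chain, heat shock and clock genes showed few separated members. The giant sarcomere protein gene sls was at 831, 725 and 554 CPM with DMSO and 1323, 848 and 851 CPM with inhibitor (difference 0.52, SE 0.22, edgeR adjusted p = 0.647), the 1 separated of 23. The muscle list had 15 members with a log2 difference below 0 and 8 above, with a median of -0.15. That median was 0.05 without both libraries numbered 2. Of 79 nuclear-encoded respiratory chain genes, 1 was separated in each direction, with a median of 0.003. Heat shock genes gave 1 of 21, downward, and clock genes 0 of 10. The mitochondrial small ribosomal RNA mt:srRNA was at 4.67, 6.74 and 6.11 CPM against 3.45, 2.21 and 3.76 CPM after depletion of ribosomal RNA.

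The inhibitor library numbered 2 held a set of genes found at such levels in no other library. With a rule chosen after the data were seen, at least 10 CPM and at least 10 times the highest of the other 11 libraries plus 0.5 CPM, 132 genes were high in it alone, and 0 or 1 in each other library. They took 3.69% of its gene counts. Their median level there was 116 CPM and the highest was 2789 CPM, for CG32354. They lie on all the large chromosome arms, 24 on 2L, 21 on 2R, 32 on 3L, 39 on 3R and 14 on X, with 1 on Y and 1 in mitochondria, and comprise 109 protein-coding genes, 21 noncoding RNAs and 2 pseudogenes. All 132 had an unadjusted p under 0.05 in the comparison of treatments, and 61 of them are among the 443 genes separated upward. Since the rule chose them for their level in that library, these counts describe the choice.

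Among them were genes of the cell division cycle and of the germ line. The mitotic kinase gene Cdk1 was at 0.615, 0.720 and 0.717 CPM with DMSO and 3.39, 668 and 4.44 CPM with inhibitor, the spindle gene asp at 604 CPM in that library and the Aurora complex gene Incenp at 125 CPM. The transposon-silencing gene piwi was at 233 CPM, the piRNA precursor lncRNA:flam at 897 CPM, the receptor gene mth at 838 CPM and the clock gene Clk at 790 CPM. The Y-linked gene ORY was at 296 CPM, against 0.425 to 2.87 CPM in the other 5. Genes of the same processes differed among themselves there. The cyclin genes CycA and CycB were at 0.927 and 2.60 CPM, the mitotic kinase gene polo at 1.39 CPM, the germ line genes aub and vas at 1.68 and 0.570 CPM and the Y-linked genes PRY and Ppr-Y at 1.1 and 0.178 CPM. The Y-linked kl-2 was at 17.1 CPM in that library and 1.11 to 2.36 CPM in the other 5, and kl-3 at 5.67 CPM against 1.75 to 2.89 CPM. The Y-linked kl-5 was at 8.38 CPM there and at 2.42 to 15.2 CPM in the other 5.

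**Figure D5:**
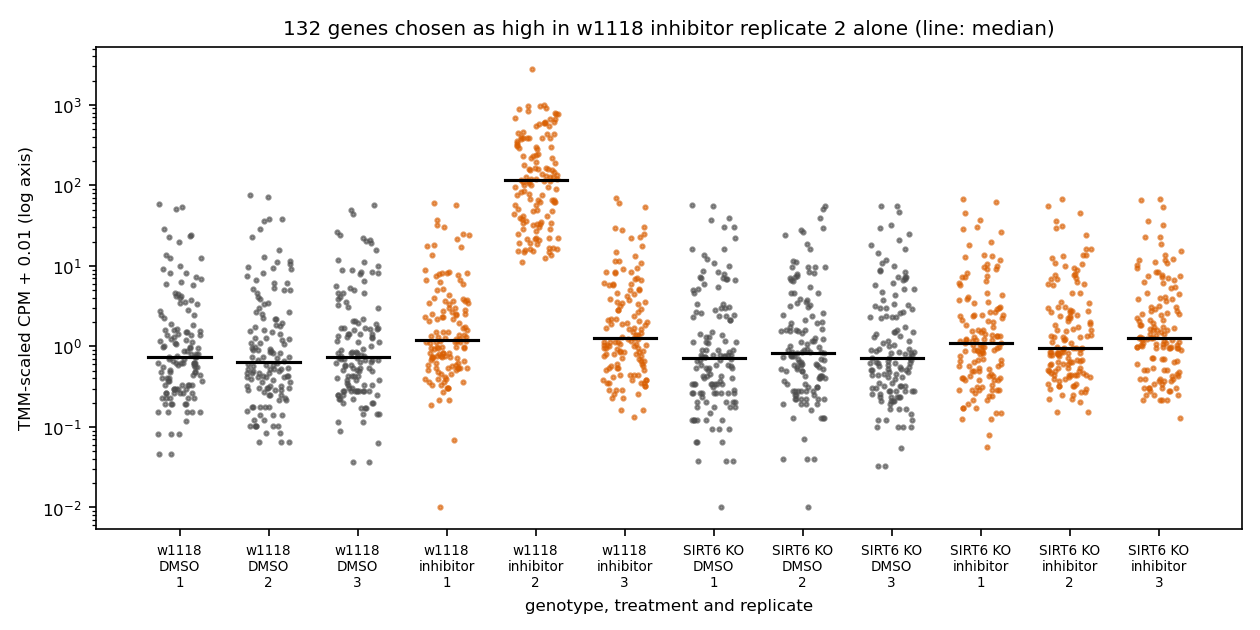
TMM-scaled CPM plus 0.01, on a log axis, of the 132 genes chosen as high in the inhibitor library numbered 2 of w1118, in each of the 12 libraries, with the median as a line. The points of that library centre on 116 CPM and the highest lies at 2789 CPM.

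Some of these genes were also higher in the other libraries with inhibitor. For 24 of the 132 (18.2%), the other 5 libraries with inhibitor, those labelled KO included, lay above all 6 libraries with DMSO, against 0.297% of all genes tested. The 0.297% stands for 42 genes and includes these 24. Some of the 24 passed the count filter only through libraries with inhibitor, as lncRNA:CR46480 had 1, 5 and 1 counts with DMSO in w1118. The 2 shares were therefore not read as a test. CG43296 was at 0.145, 0.0738 and 0.0531 CPM with DMSO and 2.19, 961 and 3.89 CPM with inhibitor in w1118, and at 0, 0.120 and 0.0450 CPM against 1.37, 1.82 and 1.58 CPM in the libraries labelled KO. The noncoding lncRNA:CR44151 was at 0.434, 0.517 and 0.239 CPM against 3.65, 998 and 4.97 CPM in w1118, and lncRNA:CR46480 at 0.0362, 0.0923 and 0.0266 CPM against 3.71, 918 and 5.15 CPM. For these 24 genes the mean of the other 5 inhibitor libraries was 0.178% to 2.25% of the level in the library numbered 2 (median 0.436%), and that of the DMSO libraries 0.00579% to 1.28% (median 0.118%). The part of that library in these levels was not tested.

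These genes also supply the calls that appear when libraries are left out. Without the inhibitor library numbered 2, edgeR called 9 genes, all higher and all from the set of 132. Without both libraries numbered 2 it called 9, all higher, 8 of them from the set and 7 shared with the first 9. With lncRNA:CR46480 as an example, the log2 difference was 12.32 with all libraries (edgeR adjusted p = 0.555), 6.22 without the inhibitor library numbered 2 (adjusted p = 0.00248) and 7.03 without both (adjusted p = 0.013). Under the other settings its adjusted p lay between 0.208 and 1.00.

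Set beside the libraries labelled KO, which have their own DMSO and inhibitor libraries, the w1118 comparison had no gene past the threshold in the test of the difference itself. The edgeR interaction called 0 of 14155 genes (0.0%), with 685 at an unadjusted p under 0.05 (4.84%) and a smallest adjusted p of 0.0771. DESeq2 called 64 genes and voom 2 for the same difference. For lncRNA:roX2 the interaction was -0.37 (SE 0.28, edgeR adjusted p = 0.981), with differences of -1.66 in w1118 and -1.29 in the libraries labelled KO. All 6 libraries with inhibitor lay above all 6 with DMSO for 33 genes (0.233%), of which 24 belong to the 132 genes high in 1 library, and below all 6 for 16 genes (0.113%). Besides lncRNA:roX2 the 16 included CG10237, at 84.8, 140 and 96.2 CPM against 74.6, 49.5 and 62.9 CPM in w1118 and at 83.9, 88.9 and 79.8 CPM against 51.2, 64.1 and 52.1 CPM in the libraries labelled KO. They also included CG7236, at 10.8, 13.8 and 13.3 CPM against 7.25, 7.20 and 9.04 CPM in w1118 and at 9.70, 11.1 and 13.5 CPM against 7.06, 9.07 and 7.62 CPM in the libraries labelled KO. Ilp2 was lower with inhibitor in w1118, whereas in the libraries labelled KO it was at 45.9, 53.4 and 47.1 CPM with DMSO and 58.4, 59.0 and 49.1 CPM with inhibitor, with overlapping groups and an interaction of -0.80 (SE 0.24, edgeR adjusted p = 0.972). In the libraries labelled KO, REPTOR was at 177, 157 and 159 CPM with DMSO and 190, 188 and 176 CPM with inhibitor, also with overlapping groups.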

How the data were processed

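The authors deposited 1 table of expected counts (estimated counts per feature, mostly not whole and not scaled to a common depth). Per the submitters' processing notes, Trim Galore 0.6.7, STAR 2.7.9a, Salmon 1.10.1 and the build BDGP6 were used; their roles, and whether strand was used, are not given in the sources used here. Per the labels' protocols, spike-in RNA was added and ribosomal RNA depleted; the table used here holds 0 spike-in rows. Of 24278 rows, 17895 are genes and the rest, 1.77% to 3.11% of a w1118 library, were left out of library sizes and tests. The symbols and positions of 17855 genes came from the Ensembl annotation of BDGP6 through their FlyBase identifiers.

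Counts were rounded to whole numbers, filtered with edgeR's filterByExpr (minimum count 10, 14155 genes kept), scaled by TMM and fitted over all 12 libraries, with 1 coefficient per group, by edgeR 4.0.16 (R 4.3.3). The quasi-likelihood test was adjusted by Benjamini-Hochberg at 0.05. Standard errors and 95% intervals were derived from the test statistic. A gene is called separated where the 3 libraries of one group lie all above or all below the 3 of the other in TMM-scaled CPM. A level of 3 counts corresponds to 0.0706 to 0.126 CPM, before TMM scaling, and covers counting error only. DESeq2 1.42.0, limma 3.58.1 (voom with library weights), other scaling and filters, a replicate block, a fit of w1118 alone and leaving out libraries were the alternatives. On counts simulated for this comparison with an assumed spread and no outlying library, edgeR made 6 false calls and DESeq2 20.

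Genes named are v and the tryptophan list, the 10 separated genes with the smallest p in each direction at or over 1 CPM on average, the 2 with the smallest p in each list, up to 3 DESeq2 calls in each direction, and genes that set the libraries numbered 2 apart. Others are named as list members, partners or further members of a described pathway and were chosen after their values were seen. The members, lists and rules were chosen with earlier results of these data known.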

Additional observations from a re-analysis of the deposited data

Results flagged for a closer look

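For 6 of the genes named, every library with inhibitor lay below every DMSO library in w1118 and above every DMSO library in the libraries labelled KO. The difference between the 2 effects (w1118 minus KO, log2) was -1.76 for Lamtor2, -1.14 for CG6830, -0.94 for dpr21, -0.78 for Cyp4ae1, -1.67 for Ugt35E1 and -1.03 for Nplp3. The edgeR adjusted p of that difference was 0.331 for Lamtor2 and 0.972 for the other 5 genes, so none passed the threshold. Many named genes were chosen for their separation in w1118, and the share of all genes with this opposite pattern was not counted. The number 6 therefore has no background to be read against. Levels of Lamtor2 were 8.21, 8.14 and 8.21 CPM with DMSO and 3.62, 3.99 and 4.84 CPM with inhibitor in w1118, and 4.54, 4.05 and 4.21 CPM against 5.18, 8.21 and 8.63 CPM in the libraries labelled KO. Lamtor2 shares its locus with CG30120. In w1118 the log2 ratio of the means was -0.90 for Lamtor2 and -0.19 for the sum of both genes. How reads were divided between the 2 genes was not tested, so the difference between the effects is uncertain for Lamtor2. Levels of Nplp3 were 144, 192 and 132 CPM against 121, 60.9 and 112 CPM in w1118, and 56.4, 60.5 and 67.4 CPM against 85.8, 81.0 and 69.4 CPM in the libraries labelled KO.

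Outside the genes, 36 transposable element rows were high in the inhibitor library numbered 2 of w1118 alone, against 0 to 2 in each of the other 11 libraries.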

How the results depend on the processing

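Over the alternatives to the w1118 comparison edgeR and voom called 0 genes, except that edgeR called 9 without both libraries numbered 2 and 0 to 9 when 1 library was left out, the 9 being without inhibitor replicate 2; DESeq2 called 48. For the difference between genotypes DESeq2 called 64 genes, voom 2, edgeR 1 without both libraries numbered 2 and 0 to 1 when 1 library was left out (1 without DMSO replicate 2). Same-numbered w1118 libraries deviated together with r = 0.02, 0.21 and 0.10 over 10825 genes, and unlike-numbered pairs with r from -0.21 to 0.23. The sample titles do not say whether the numbers pair samples, and these values cannot decide it. With the replicate number as a block 0 genes were called, 749 had an unadjusted p under 0.05 and the smallest adjusted p was 0.839. Directions turned with voom for w (0.029), Trhn (0.091), Hn (-0.23), Ddc (0.15) and Vmat (0.056), and without both libraries numbered 2 for w (0.10), Trhn (0.12), Hn (-0.13), Ddc (0.24), Vmat (0.12), TotA (-0.013) and TotC (-0.34). With 1 library left out the difference ran from -0.31 to 0.045 for w, -0.29 to 0.10 for kar, -0.13 to 0.12 for Trhn, -0.44 to 0.44 for Hn, -0.22 to 0.13 for Ddc and -0.27 to 0.056 for Vmat, and that in the yolk protein share from -5.43 to 7.38 percentage points. The causes were not tested. List counts without both libraries numbered 2 and the set of 132 genes were chosen after the data were seen. With 3 flies a group, effects of 1 on the log2 scale were mostly not called in the simulation (31 of 101). Its spread was assumed and held no outlying library, so the rate in the real libraries is not known.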

Other observations

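Besides the genes already described, Hr38, a nuclear receptor gene induced by neuronal activity, was at 34.3, 58.2 and 29.6 CPM with DMSO and 49.3, 82.2 and 47.0 CPM with inhibitor in w1118. In the libraries labelled KO, Hr38 was at 32.0, 30.6 and 29.6 CPM against 48.9, 40.8 and 44.3 CPM. The groups overlapped in w1118 and did not in the libraries labelled KO. Of 9 tested genes of neuronal activity and immediate early response, 0 were separated in w1118. Their log2 differences were above 0 for 5 and below 0 for 4, with a median of 0.02. NFAT, a transcription factor gene, was at 123, 139 and 114 CPM against 149, 198 and 152 CPM in w1118, and is 1 of the 9 genes outside the set of 132 for which all 6 libraries with inhibitor lay above all 6 with DMSO. Some of the 9 were still far higher in the inhibitor library numbered 2, as Tlk was at 139, 1026 and 140 CPM with inhibitor in w1118. Others were not, as CG15312 was at 32.4, 32.5 and 33.6 CPM there.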
